A study of Mus musculus with 6 samples.

Results

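The semaphorin, ephrin, netrin and Slit guidance genes are the secreted and membrane-bound cues that steer migrating cells and growing axons, together with the receptors that read them. They were taken from a count table of 18197 mouse gene symbols by name alone: every Sema class 3 to 7, plexin A to D, ephrin-A and ephrin-B, EphA and EphB, Slit, Robo, netrin and Unc5 symbol was a member. This gave 56 members of the 18197 symbols, of which 30 encode ligands, 24 encode receptors and 2 are neither, Unc5cl and the antisense RNA Plxna4os1. A filter on low counts left 54 of the 56, and 16543 genes in all, to be tested. The members Sema3e and Sema3g did not pass it.

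The samples were cancer-associated fibroblasts, the matrix-producing stromal cells of a tumour, sorted by flow cytometry from mammary tumours that the polyoma middle T oncogene (PyMT) had caused. Labels name 3 libraries mPGES-1 KO and 3 WT, called the KO-labelled and WT-labelled libraries here. All were from C57BL/6 mice that carry PyMT, with tumours taken after 16 to 20 weeks. mPGES-1, the product of Ptges, is the enzyme that makes most inducible prostaglandin E2, and the series title asks which expression in these cells depends on that lipid. The sources used here give neither the promoter that drives PyMT, nor the cells that lack mPGES-1, nor the gate of the sort. Nothing says that libraries with the same label are from different mice, so the p-values reflect spread among 6 libraries that may be technical.

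Total counts were 23013498 to 37249186 in the KO-labelled libraries and 37432510 to 43648450 in the WT-labelled libraries. Ptges itself was at 186, 137 and 129 counts per 1000000 (CPM) in the KO-labelled libraries, against 31.9, 19.2 and 27.9 CPM in the WT-labelled libraries. The log2 fold change was 2.51 ± 0.31 (SE, n = 3 each, adjusted p = 0.0171, edgeR's quasi-likelihood test with Benjamini-Hochberg adjustment over all 16543 tested genes). Ptges was thus higher, and not lower, where the label names its knockout, and the cause was not tested. Counts per gene do not show which exons the reads came from, and every direction below is between libraries as labelled. Fibroblast markers made up 0.654% to 1.73% of the counts in the KO-labelled libraries and 0.969% to 2.61% in the WT-labelled libraries, so these markers were detected in all 6. Luminal mammary epithelial markers made up 4.27% to 5.52% in the KO-labelled libraries and 1.33% to 1.85% in the WT-labelled libraries. The luminal share was above the fibroblast share in every library except WT replicate 3. The lists hold different genes, so their shares do not give numbers of cells. Pericyte and vascular smooth muscle markers made up 0.0253% to 0.0494% in the KO-labelled libraries and 0.360% to 1.02% in the WT-labelled libraries. At an adjusted p under 0.05, 6 of 12 luminal markers were higher, and 10 of 13 pericyte markers and 1 of 10 fibroblast markers were lower, with the KO label. Over all tested genes, 2.76% were called, 1.20% higher and 1.56% lower. No luminal, pericyte or fibroblast marker listed was at 0 in any library. Schwann cell markers made up 0.0256% to 0.0303% in the KO-labelled libraries and 0.00939% to 0.0119% in the WT-labelled libraries. Of 7 tested, 4 lay higher and 1 lower with the KO label without overlap, and none passed the adjusted threshold. Labels were apart in 27.9% of all tested genes, 12.2% higher and 15.7% lower. Shares of basal epithelial, endothelial and leukocyte markers overlapped between labels, and none of their tested genes passed the adjusted threshold. Of 10 leukocyte markers, 2 lay higher without overlap, Itgam and Ptprc, and none lower. Ptprc was at 21.5, 15.9 and 59.8 CPM in the KO-labelled libraries, against 8.15, 3.65 and 8.32 CPM in the WT-labelled libraries. Of 9 endothelial markers, 1 lay lower without overlap, and no basal marker separated. In bulk RNA, fewer cells of a type and less RNA per cell cannot be told apart, and the part of these shares in the results below was not tested.

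Guidance cues act in ligand and receptor pairs. Semaphorins bind plexins, alone or with neuropilins as co-receptors, and lead to local collapse of the cytoskeleton through small GTPases. Ephrins sit on the cell surface, ephrin-A by a lipid anchor and ephrin-B by a membrane-spanning domain, and bind Eph receptor tyrosine kinases on the neighbouring cell, so that signalling needs contact and can run into both cells. Slits are large secreted proteins read by Robo receptors, and netrins are laminin-related secreted proteins read by DCC and neogenin and by the Unc5 receptors, which mediate repulsion and can trigger cell death when no netrin is bound. In the mammary gland and its tumours these systems are known for roles in branching, cell sorting at tissue borders, vessel growth and invasion.

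Promoter windows were looked at for 4 members: Efna1, Unc5b and Sema6d, which passed the adjusted threshold, and Epha2, which did not. Epha2 was added as a receptor of the class of Efna1, at an adjusted p of 0.0600 in edgeR's test. Plxna1, at 0.0560, was nearer the threshold and its window is not printed. For 3 of the 4, the 250 bases before the outermost RefSeq start (GRCm38.p6) are printed here 5' to 3' on the gene's own strand. The window of Efna1 is not printed, because 191 of its 250 bases lie inside the gene as GENCODE M21, the source of the gene positions given here, places it. Capitals mark a GC box (GGGCGG, or CCGCCC where it lies on the other strand), the site of Sp-family factors, and in Epha2 a cyclic AMP response element (TGACGTCA).
Epha2, chr4:141300971-141301220, plus strand: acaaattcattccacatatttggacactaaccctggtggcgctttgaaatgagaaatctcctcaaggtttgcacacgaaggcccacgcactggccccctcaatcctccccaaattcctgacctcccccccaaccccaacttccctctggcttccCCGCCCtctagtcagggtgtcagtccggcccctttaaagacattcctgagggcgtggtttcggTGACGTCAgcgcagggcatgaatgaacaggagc
Unc5b, chr10:60831582-60831831, minus strand: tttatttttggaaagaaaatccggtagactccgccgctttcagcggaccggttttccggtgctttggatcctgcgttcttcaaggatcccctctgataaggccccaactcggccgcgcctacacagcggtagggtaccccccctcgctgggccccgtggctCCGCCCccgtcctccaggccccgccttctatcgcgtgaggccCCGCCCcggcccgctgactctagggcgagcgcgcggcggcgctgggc
Sema6d, chr2:124089719-124089968, plus strand: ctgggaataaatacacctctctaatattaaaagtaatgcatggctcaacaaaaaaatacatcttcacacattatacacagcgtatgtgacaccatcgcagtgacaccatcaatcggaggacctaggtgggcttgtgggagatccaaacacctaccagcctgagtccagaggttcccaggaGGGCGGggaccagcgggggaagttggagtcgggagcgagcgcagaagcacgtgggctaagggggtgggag
Each of the 3 holds a GC box, at 96 bases before the start in Epha2, 89 and 47 in Unc5b and 70 in Sema6d. Searched on both strands, the GC box was in 72.3% of 65 promoters of members (49 of the 56 were in the table) and in 32.7% of all 32851 promoters. Member promoters were also richer in G and C, with a median of 64.4% against 52.4% over all promoters. The full cyclic AMP response element was in 1.54% of member promoters, which is the Epha2 promoter alone, at 33 bases before the start, and in 1.55% of all. Its core TGACG, which the full element holds on both strands, was in 9.23% of member promoters and 17.8% of all. The AP-1 site TGANTCA was in 4.62% of member promoters and 6.75% of all, and in none of the 3 printed. A match is a run of letters and not a shown binding site.

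Among the 54 tested members, the ligand gene Efna1 was higher and the receptor gene Unc5b and the ligand gene Sema6d were lower in the KO-labelled libraries than in the WT-labelled libraries, by ratios of means of 3.86, 9.97 and 11.3. No other member passed an adjusted p of 0.05. The 3 calls are 5.56% of the tested members, while 2.76% of all tested genes were called, 1.20% of the tested genes higher and 1.56% lower. The share of members with an unadjusted p under 0.05 was 27.8%, against 19.1% of all genes. In 18 members (33.3%) the 3 libraries of one label all lay above the 3 of the other, against 27.9% of all genes. Of these, 7 members were higher and 11 lower in the KO-labelled libraries, and over all genes the shares were 12.2% higher and 15.7% lower. The median log2 fold change was -0.36 over the members and -0.04 over all genes.

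Guidance genes were low and uneven in these libraries. The median member averaged 9.14 CPM, against 15.8 CPM for all tested genes, and the median coefficient of variation within a label was 0.612 in the KO-labelled libraries and 0.590 in the WT-labelled libraries, against 0.445 with the KO label and 0.448 with the WT label for all genes. The highest library of a label was more than 5 times the lowest in 21 of the 56 members among KO-labelled libraries and in 24 among the WT-labelled libraries. The same count over all genes is not given here, and the 56 include untested members and members with no count in some libraries. Depth set a floor of 3 counts at 0.0683 to 0.126 CPM, and between 0 and 5 members had no count in a library.

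**Figure D1:**
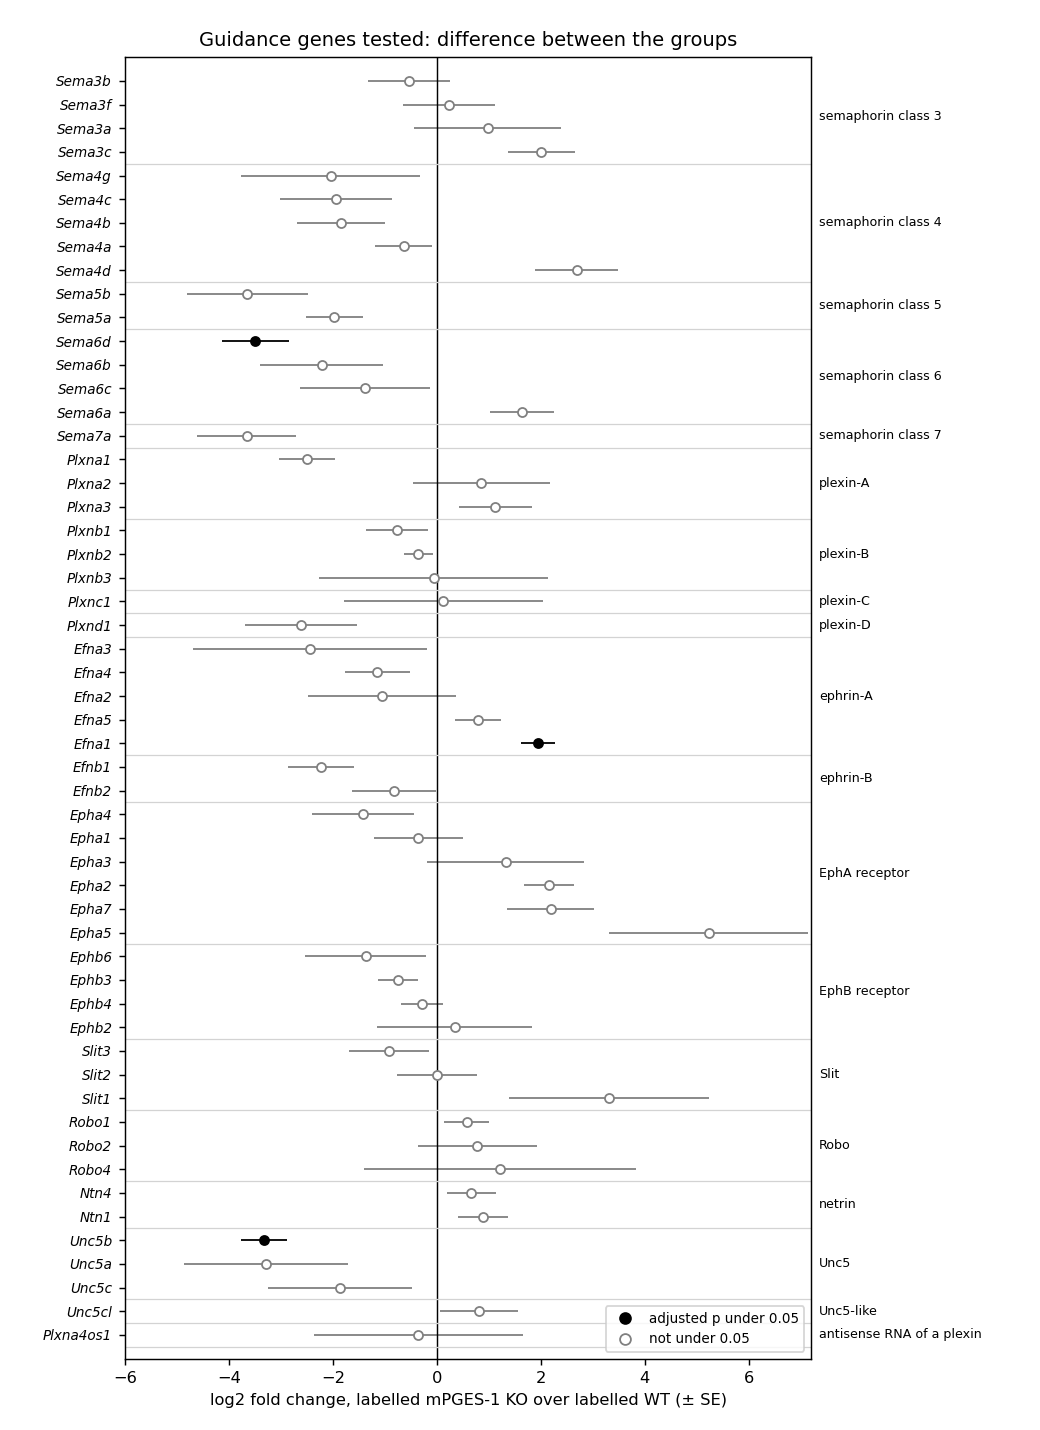
Log2 fold change of each tested guidance gene, KO-labelled libraries over WT-labelled libraries, with bars of 1 SE and n = 3 libraries each, by family. Efna1 stands at 1.95 on the positive side and Unc5b and Sema6d at -3.32 and -3.49 on the negative side as the members past an adjusted p of 0.05. Other members lie as far from 0 with wider bars.

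Semaphorin ligands were the largest family, with 18 members, 16 of them tested. Sema6d fell, none rose and 15 did not pass the test. Sema6d, a membrane-spanning semaphorin known to act through plexin-A1 in the chick heart, was at 5.56, 1.72 and 2.46 CPM in the KO-labelled libraries, against 55.4, 33.4 and 20.8 CPM in the WT-labelled libraries. The lowest WT-labelled library was thus over 3 times the highest KO-labelled one. The log2 fold change was -3.49 ± 0.65 (SE, n = 3 each, adjusted p = 0.0379), from means of 3.25 ± 2.04 CPM (SD) with the KO label and 36.5 ± 17.6 CPM with the WT label, a ratio of 11.3. Sema6d spans 124089969 to 124667770 of chromosome 2 on the plus strand (GRCm38). The call did not survive leaving out any 1 library, with an adjusted p of 0.052, 0.14 and 0.12 when KO replicates 1, 2 and 3 were omitted and of 0.067, 0.136 and 0.0642 when WT replicates 1, 2 and 3 were omitted.

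Among the other semaphorins that separated by label, 4 more lay lower and 3 lay higher in the KO-labelled libraries, none past the adjusted threshold. In all, 8 of the 16 tested semaphorins separated, against 27.9% of all tested genes. Sema7a, a lipid-anchored semaphorin known to bind integrins and plexin-C1, was at 0.951, 0.629 and 0.510 CPM in the KO-labelled libraries and at 5.19, 7.37 and 13.9 CPM in the WT-labelled libraries, a log2 fold change of -3.66 ± 0.96 (adjusted p = 0.0898). Sema5a, a membrane-spanning semaphorin with thrombospondin repeats, was at 20.9, 4.95 and 12.4 CPM in the KO-labelled libraries and at 64.6, 47.0 and 38.1 CPM in the WT-labelled libraries (log2 fold change -1.97 ± 0.55, adjusted p = 0.105). Its relative Sema5b was at 2.12, 0.293 and 0.680 CPM in the KO-labelled libraries and at 2.46, 22.2 and 14.1 CPM in the WT-labelled libraries (-3.64 ± 1.17, adjusted p = 0.140). All 3 were lower without overlap, but in Sema5b WT replicate 1 was only just above mPGES-1 KO replicate 1. Sema4b was at 0.922 to 3.57 CPM in the KO-labelled libraries and at 7.44 to 10.9 CPM in the WT-labelled libraries.

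The 3 semaphorins that lay higher were Sema4d, Sema3c and Sema6a. Sema4d, the ligand of plexin-B1 and known for its part in immune cells and tumour vessels, was at 18.4, 30.0 and 18.8 CPM in the KO-labelled libraries, against 0.706, 5.23 and 4.47 CPM in the WT-labelled libraries (log2 fold change 2.69 ± 0.80, adjusted p = 0.119). Sema3c, a secreted class 3 semaphorin read by neuropilins and plexins, was at 91.7, 38.6 and 27.8 CPM in the KO-labelled libraries, against 22.3, 5.66 and 11.1 CPM in the WT-labelled libraries (2.01 ± 0.65, adjusted p = 0.140). In Sema3c, mPGES-1 KO replicate 1 was more than 2 times each of the other 2, and the lowest KO-labelled library was close to the highest WT-labelled one. Sema6a was at 48.9, 15.5 and 21.7 CPM in the KO-labelled libraries, against 14.9, 5.86 and 6.86 CPM in the WT-labelled libraries (1.64 ± 0.61, adjusted p = 0.199). Its labels nearly met, at mPGES-1 KO replicate 2 and WT replicate 1.

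The other semaphorins overlapped between labels. Sema4a, the class 4 semaphorin with the highest mean, was at 14.2, 26.1 and 8.24 CPM in the KO-labelled libraries and at 37.4, 21.4 and 16.7 CPM in the WT-labelled libraries (-0.64 ± 0.55, adjusted p = 0.603). Sema3a, Sema3b, Sema3f, Sema4c, Sema4g, Sema6b and Sema6c had log2 fold changes from -2.21 to 0.98, none past the threshold. Sema3a showed the spread of single libraries, with 17.4 CPM in mPGES-1 KO replicate 1 and 0.796 and 0.793 CPM in the other libraries of that label, against 2.66, 1.03 and 5.93 CPM in the WT-labelled libraries. The untested Sema3e had 88, 49 and 1 counts in the KO-labelled libraries and 0, 4 and 0 counts in the WT-labelled libraries. The untested Sema3g had 2, 11 and 2 counts in the KO-labelled libraries and 0, 5 and 84 counts in the WT-labelled libraries.

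Plexins, the semaphorin receptors, had 8 tested members, and none passed the test in either direction. Plxna1, the receptor that Sema6d and class 3 semaphorins with neuropilin use, was at 11.9, 6.16 and 8.27 CPM in the KO-labelled libraries, against 21.9, 73.5 and 53.5 CPM in the WT-labelled libraries. The labels did not overlap, and WT replicate 1 lay below the other WT-labelled libraries. The log2 fold change was -2.50 ± 0.53 with an adjusted p of 0.0560. It was 0.0311 without WT replicate 1 and 0.0488 where 1 CPM was required in 3 or more libraries, but 0.0966 to 0.231 without any other single library. An antisense-strand gene model shares 10.7% of its exonic bases, and the library kit does not mark strand, so Plxna1 counts may hold some of its reads. Plxnd1, the receptor of Sema3e and known in vessels, was at 1.61, 0.880 and 9.74 CPM in the KO-labelled libraries and at 5.92, 33.2 and 36.0 CPM in the WT-labelled libraries (-2.61 ± 1.07, adjusted p = 0.238). mPGES-1 KO replicate 3 overlapped WT replicate 1.

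Plxnb2, the plexin with the highest level, was at 72.7, 57.8 and 57.9 CPM in the KO-labelled libraries and 86.3, 93.9 and 61.3 CPM in the WT-labelled libraries (-0.36 ± 0.28, adjusted p = 0.560). Its relative Plxnb1, the receptor of Sema4d, was at 14.0, 12.1 and 7.25 CPM in the KO-labelled libraries and 9.15, 31.6 and 16.1 CPM in the WT-labelled libraries. Plxnc1, the receptor of Sema7a, was at 4.97, 1.13 and 2.61 CPM in the KO-labelled libraries and at 0, 0.327 and 7.69 CPM in the WT-labelled libraries (0.12 ± 1.91, adjusted p = 0.984). Plxna2, Plxna3 and Plxnb3 also did not pass the test, with log2 fold changes of 0.86, 1.13 and -0.06.

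Of the 7 ephrins, Efna1 rose, none fell and 6 did not pass the test. Efna1, the ephrin-A1 ligand of EphA2, was at 161, 184 and 126 CPM in the KO-labelled libraries, against 55.6, 35.9 and 30.3 CPM in the WT-labelled libraries. Every KO-labelled library was more than 2 times every WT-labelled library. The log2 fold change was 1.95 ± 0.32 (SE, n = 3 each, adjusted p = 0.0295), with means of 157 ± 29.4 CPM (SD) with the KO label and 40.6 ± 13.3 CPM with the WT label, a ratio of 3.86. Efna1 lies on chromosome 3, from 89271733 to 89281142 on the minus strand. The call was lost without mPGES-1 KO replicate 1 (adjusted p = 0.071), replicate 2 (0.118) or replicate 3 (0.0753), and without WT replicate 2 (0.126) or replicate 3 (0.0845).

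The neighbouring ephrin genes did not pass the test. Efna3 and Efna4 lie on the same strand, Efna3 32756 bases beyond Efna1 and Efna4 10424 bases beyond Efna3. Efna4, another ligand of A-class receptors, was at 5.19, 7.80 and 3.62 CPM in the KO-labelled libraries, against 13.1, 12.7 and 10.9 CPM in the WT-labelled libraries (log2 fold change -1.14 ± 0.62, adjusted p = 0.382), so its labels separated in the other direction. Efna3 was near the floor, at 0, 0 and 0.368 CPM in the KO-labelled libraries and 0, 1.33 and 0.769 CPM in the WT-labelled libraries. Exonic bases shared with genes on the opposite strand were 14.1% of Efna3 and 10.5% of Efna4. Efna5, an ephrin-A on another chromosome, was at 32.7, 34.9 and 40.2 CPM in the KO-labelled libraries, against 27.1, 9.79 and 25.4 CPM in the WT-labelled libraries (0.79 ± 0.45, adjusted p = 0.403).

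Neither ephrin-B ligand passed the test. Efnb1, the X-linked ephrin-B1 known at tissue borders, was at 12.3, 8.26 and 2.44 CPM in the KO-labelled libraries, against 37.9, 25.2 and 44.7 CPM in the WT-labelled libraries. The labels did not overlap, but the log2 fold change of -2.23 ± 0.63 did not pass the test (adjusted p = 0.107). Efnb2, known in arteries, was at 3.51, 3.73 and 7.36 CPM in the KO-labelled libraries and 15.1, 4.13 and 6.62 CPM in the WT-labelled libraries.

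Of the 10 Eph receptors none passed the test. Epha2, the receptor of ephrin-A1 and known in invasive breast cancer cells, was at 31.7, 97.5 and 86.8 CPM in the KO-labelled libraries, against 17.7, 18.8 and 11.97 CPM in the WT-labelled libraries. The libraries did not overlap, and mPGES-1 KO replicate 1 lay well below the other 2 of its label. The log2 fold change was 2.16 ± 0.48 with an adjusted p of 0.0600. It was 0.0403 without mPGES-1 KO replicate 1 and 0.0473 where 1 CPM was required in 3 or more libraries, but 0.0856 to 0.203 without any other single library. Epha2 lies on chromosome 4, from 141301240 to 141329384 on the plus strand. Luminal epithelial markers were also higher with the KO label: Epcam was at 4686, 4899 and 3743 CPM in the KO-labelled libraries, against 633, 338 and 480.5 CPM in the WT-labelled libraries, and the part of such cells in the Efna1 and Epha2 values was not tested.

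The other EphA receptors did not pass the test either. Epha7 was at 49.7, 16.8 and 7.96 CPM in the KO-labelled libraries and 8.17, 1.91 and 6.20 CPM in the WT-labelled libraries (2.19 ± 0.84, adjusted p = 0.208). Epha5 had 32, 13 and 244 counts in the KO-labelled libraries, against 3, 6 and 0 counts in the WT-labelled libraries, at an adjusted p of 0.190. Epha1, Epha3 and Epha4 overlapped between labels and had log2 fold changes of -0.35, 1.32 and -1.42. Among EphB receptors, Ephb4 was at 25.0, 22.8 and 28.6 CPM in the KO-labelled libraries and 46.1, 26.3 and 20.1 CPM in the WT-labelled libraries (-0.28 ± 0.40, adjusted p = 0.786). Ephb3 separated by label, at 13.8, 16.7 and 23.2 CPM in the KO-labelled libraries against 29.0, 26.0 and 35.0 CPM in the WT-labelled libraries, without passing the test (-0.75 ± 0.38, adjusted p = 0.349). Ephb2 and Ephb6 had log2 fold changes of 0.35 and -1.37.

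**Figure D2:**
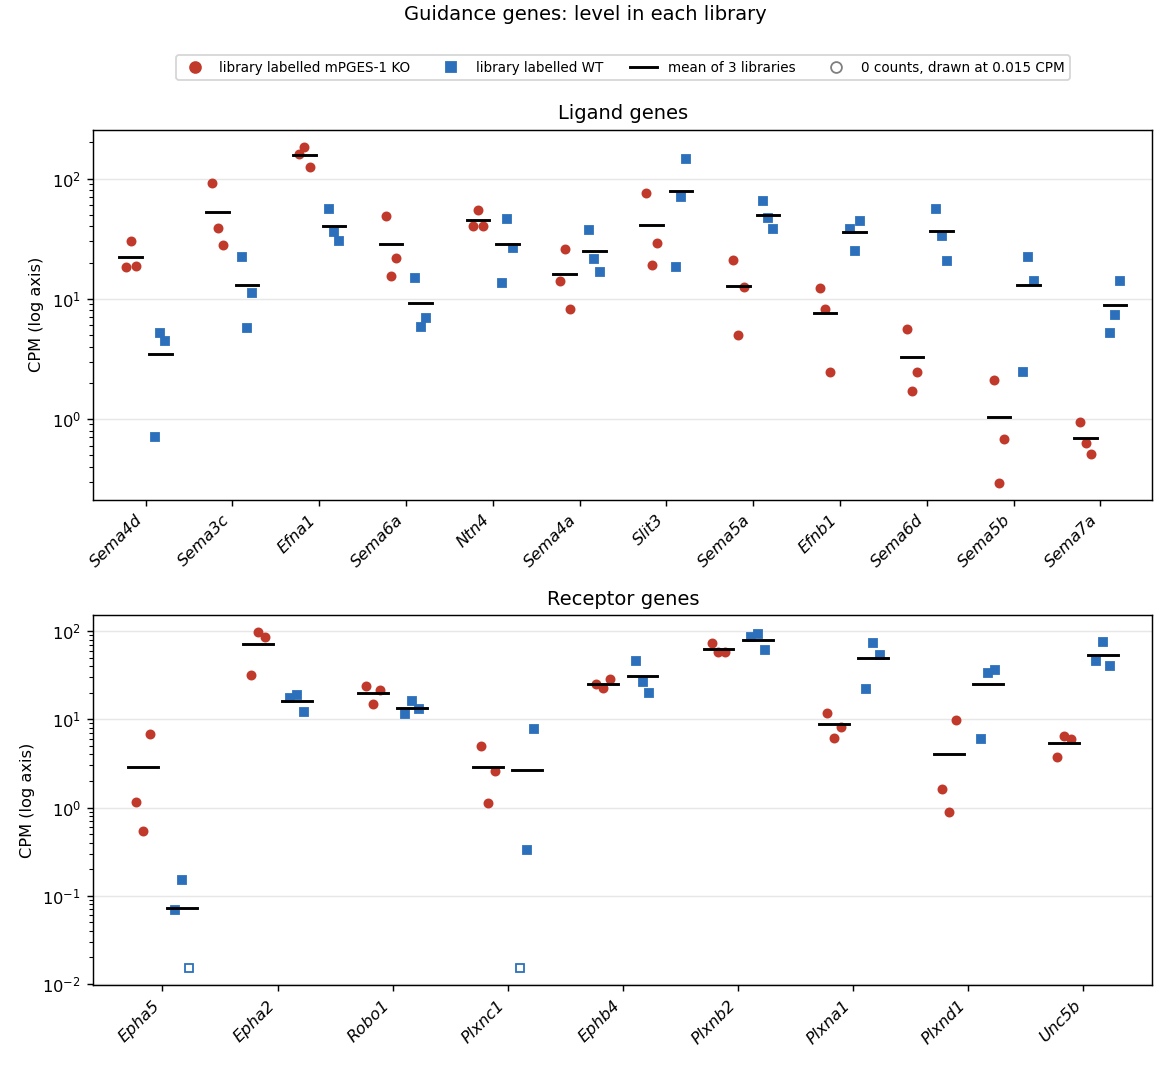
Level in CPM on a log axis of each named guidance gene in every library, KO-labelled libraries left of the WT-labelled libraries. Efna1 is at 126 to 184 CPM in the KO-labelled libraries and at 30.3 to 55.6 CPM in the WT-labelled libraries, and Unc5b is at 3.73 to 6.54 CPM in the KO-labelled libraries and at 39.9 to 76.0 CPM in the WT-labelled libraries.

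Slit ligands and Robo receptors gave no call and no member that separated by label. Slit3, a ligand known in fibroblasts and smooth muscle, was at 76.3, 18.9 and 28.8 CPM in the KO-labelled libraries and 18.3, 70.5 and 147 CPM in the WT-labelled libraries (-0.93 ± 0.77, adjusted p = 0.588). Slit2 was at 65.9, 30.3 and 21.2 CPM in the KO-labelled libraries and 27.0, 8.85 and 81.1 CPM in the WT-labelled libraries, a log2 fold change of 0.01. For both, the range within each label was wider than the difference between labels. Robo1, a receptor of both, was at 23.8, 15.0 and 21.7 CPM in the KO-labelled libraries and 11.5, 16.0 and 12.98 CPM in the WT-labelled libraries (0.58 ± 0.43, adjusted p = 0.542). Robo2 had a log2 fold change of 0.78. Slit1 had no count in 1 library, and the endothelial receptor gene Robo4 had none in 3 libraries.

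Netrin ligands and Unc5 receptors held the member with the smallest adjusted p. Unc5b, a netrin receptor known in vessel sprouts and as a dependence receptor, was at 3.73, 6.54 and 5.98 CPM in the KO-labelled libraries, against 46.0, 76.0 and 39.9 CPM in the WT-labelled libraries. The lowest WT-labelled library was about 6 times the highest KO-labelled one. The log2 fold change was -3.32 ± 0.44 (SE, n = 3 each, adjusted p = 0.0177), with means of 5.41 ± 1.49 CPM (SD) with the KO label and 54.0 ± 19.3 CPM with the WT label, a ratio of 9.97. Unc5b lies on chromosome 10, from 60762593 to 60831581 on the minus strand. Its call was lost without mPGES-1 KO replicate 2 (adjusted p = 0.0949), mPGES-1 KO replicate 3 (0.0724) or WT replicate 2 (0.0956), and held without each of the other 3 libraries. Pericyte markers were also lower with the KO label: Rgs5 was at 119.6, 49.9 and 92.7 CPM in the KO-labelled libraries, against 2291, 1512 and 858 CPM in the WT-labelled libraries, and the part of such cells in the Unc5b values was not tested.

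Unc5a and Unc5c had negative log2 fold changes that did not pass the test. Unc5a was at 1.39, 1.43 and 0 CPM in the KO-labelled libraries, against 11.1, 3.67 and 12.7 CPM in the WT-labelled libraries (-3.28 ± 1.58, adjusted p = 0.317), with no overlap. Unc5c was at 1.94, 0.713 and 0.227 CPM in the KO-labelled libraries and 3.62, 0.629 and 6.23 CPM in the WT-labelled libraries. Ntn4, a netrin of basement membranes, was at 40.6, 55.2 and 40.6 CPM in the KO-labelled libraries and 13.4, 46.4 and 26.2 CPM in the WT-labelled libraries (0.67 ± 0.47, adjusted p = 0.516). Ntn1, the classic attractant, was at 29.1, 22.5 and 30.2 CPM in the KO-labelled libraries and 24.1, 10.7 and 9.25 CPM in the WT-labelled libraries. For both netrins the labels overlapped in at least 1 library.

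Summed per kilobase of exonic length so that genes of different length can be added, the families gave the following levels. The length joins all annotated exons of a gene, 25433 bases for Slit2 and 6067 for Slit3, and can exceed that of the transcripts present. Sums and order per kilobase depend on it. The A-class ephrins summed to 99.5 ± 15.9 CPM per kb in the KO-labelled libraries and 38.0 ± 6.29 in the WT-labelled libraries (SD, n = 3 each). The EphA receptors summed to 21.5 ± 5.41 CPM per kb in the KO-labelled libraries and 8.16 ± 1.30 in the WT-labelled libraries. The B-class ephrins summed to 2.93 ± 1.15 CPM per kb in the KO-labelled libraries and 11.7 ± 3.29 in the WT-labelled libraries. The Unc5 receptors summed to 1.03, 1.42 and 0.967 CPM per kb in the KO-labelled libraries and 10.2, 13.1 and 9.74 in the WT-labelled libraries. All 56 members together summed to 203 ± 19.2 CPM per kb in the KO-labelled libraries and 168 ± 5.82 in the WT-labelled libraries. These sums are given without a test. Efna1 alone was 85.7 ± 16.1 CPM per kb in the KO-labelled libraries and 22.2 ± 7.25 in the WT-labelled libraries. In the same order, Epha2 was 15.4 ± 7.55 and 3.45 ± 0.781, Efnb1 2.22 ± 1.44 and 10.4 ± 2.87, and Unc5b 0.865 ± 0.237 and 8.62 ± 3.09. The differences in the family sums thus lay largely in 1 member each. Among the other ephrin-A genes, Efna5 had a higher mean with the KO label, and Efna2, Efna3 and Efna4 had lower ones.

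**Figure D3:**
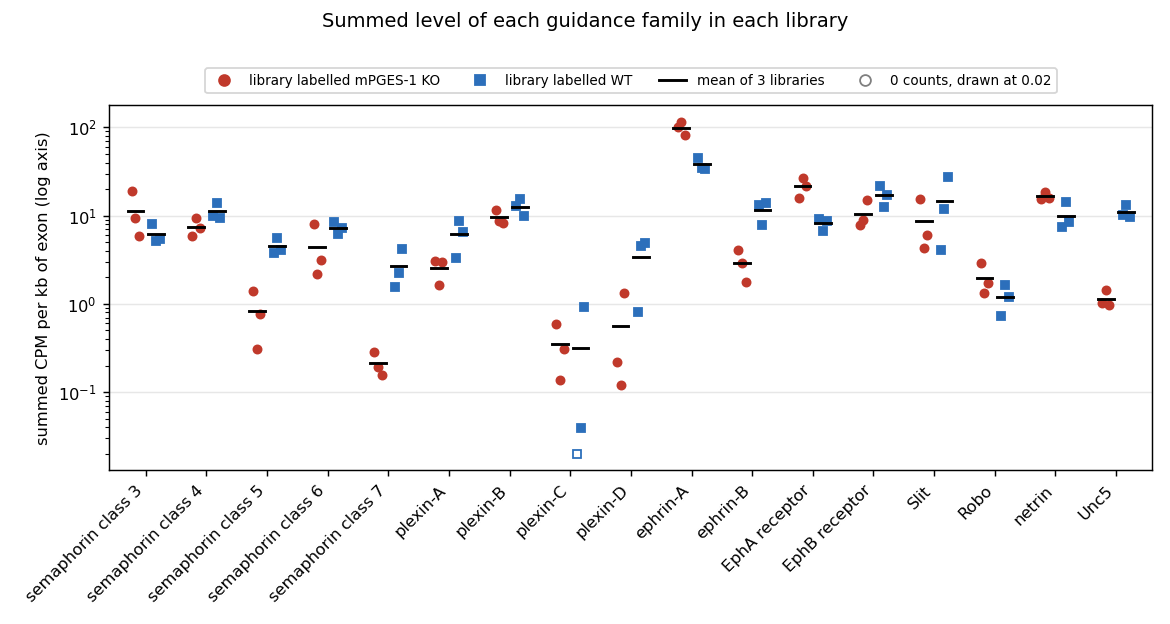
Summed level of each guidance family, in CPM per kb of exonic length on a log axis, in every library, KO-labelled libraries left of the WT-labelled libraries. The ephrin-A sum is 83.1 to 115 CPM per kb in the KO-labelled libraries and 34.1 to 45.3 in the WT-labelled libraries, and the Unc5 sum is 0.967 to 1.42 in the KO-labelled libraries and 9.74 to 13.1 in the WT-labelled libraries.

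In order of level per kilobase, Efna1 led both labels. In the KO-labelled libraries it was followed by Epha2 at 15.4 ± 7.55 CPM per kb, Ntn4 at 12.2 ± 2.24, Efna5 at 8.91 ± 0.963 and Plxnb2 at 8.13 ± 1.11, where the SD ranges of Efna1 and Epha2, and narrowly those of Ntn4 and Efna5, did not touch and those of the other neighbours did. In the WT-labelled libraries it was followed by Slit3 at 12.9 ± 10.7, Plxnb2 at 10.4 ± 2.20, Efnb1 at 10.4 ± 2.87 and Unc5b at 8.62 ± 3.09, and the SD ranges of all neighbours overlapped. Unc5b and Efnb1 are thus among the 5 highest members of the WT-labelled libraries and not among the 8 highest of those labelled mPGES-1 KO.

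Beyond the members, a list of co-receptors and signal carriers that guidance cues use was counted in the same fit. Of 57 listed genes, 52 were in the table and tested, and 1 rose and 3 fell, or 7.69% called against 2.76% over all genes. Their labels were apart in 34.6%, with 5 higher and 13 lower, near the 27.9% of all tested genes. The median log2 fold change was -0.38, against -0.04 over all genes. Rnd1, a small GTPase that binds plexins and loosens the cytoskeleton, was at 184.9, 41.7 and 46.8 CPM in the KO-labelled libraries, against 6.40, 7.12 and 3.57 CPM in the WT-labelled libraries. mPGES-1 KO replicate 1 was the highest by far, and the log2 fold change was 4.00 ± 0.69 (adjusted p = 0.0317). Its call was lost whichever single library was left out, at 0.0546 to 0.117.

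Itga1, the integrin alpha-1 subunit that binds collagen and pairs with beta-1, which Sema7a engages, was at 20.99, 10.5 and 10.6 CPM in the KO-labelled libraries, against 339, 390 and 116 CPM in the WT-labelled libraries (-4.32 ± 0.56, adjusted p = 0.0177). Its call was lost without mPGES-1 KO replicate 2 (adjusted p = 0.102), mPGES-1 KO replicate 3 (0.0748) or WT replicate 2 (0.0684). Gpc1, a heparan sulphate proteoglycan that binds Slit, was at 6.33, 1.84 and 5.21 CPM in the KO-labelled libraries, against 68.7, 28.4 and 36.3 CPM in the WT-labelled libraries (-3.31 ± 0.61, adjusted p = 0.0379), with 18.9% of its exonic bases shared with a gene on the other strand. Its call was lost whichever single library was left out, at 0.0633 to 0.116. Dpysl2, the collapsin response mediator that carries semaphorin signals to microtubules, was at 18.3, 17.6 and 28.3 CPM in the KO-labelled libraries, against 55.4, 77.6 and 69.8 CPM in the WT-labelled libraries (-1.66 ± 0.33, adjusted p = 0.0463). Its call held only without WT replicate 1, among the single libraries left out, and was otherwise at 0.0849 to 0.202.

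The neuropilins and neogenin did not pass the test. Nrp1 was at 58.4, 11.6 and 29.4 CPM in the KO-labelled libraries and 36.4, 127 and 106 CPM in the WT-labelled libraries (-1.44 ± 0.65, adjusted p = 0.288). Nrp2 was at 11.1, 3.77 and 16.0 CPM in the KO-labelled libraries and 9.79, 38.5 and 23.5 CPM in the WT-labelled libraries (-1.22 ± 0.70, adjusted p = 0.415). Neo1, the netrin and repulsive guidance molecule receptor, was at 54.6, 23.6 and 29.4 CPM in the KO-labelled libraries and 40.1, 21.03 and 20.8 CPM in the WT-labelled libraries (0.39 ± 0.46, adjusted p = 0.718). In all 3 the libraries of both labels overlapped.

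**Figure D4:**
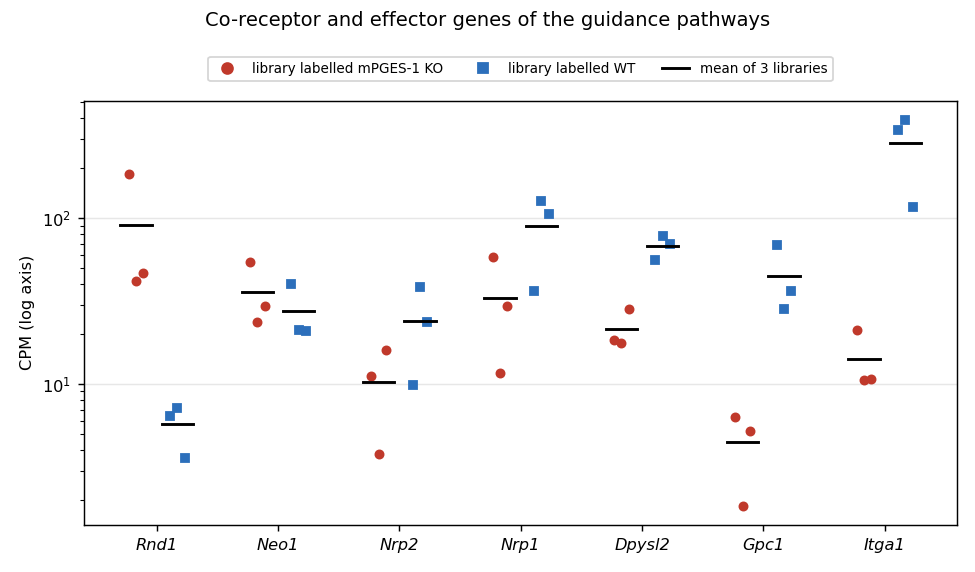
Level in CPM on a log axis of called and co-receptor genes of the signalling list in every library, KO-labelled libraries left of the WT-labelled libraries. Rnd1 is at 41.7 CPM or above in the KO-labelled libraries and at 7.12 CPM or below in the WT-labelled libraries, while Itga1, Gpc1 and Dpysl2 lie lower in the KO-labelled libraries and Nrp1, Nrp2 and Neo1 overlap.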

How the data were processed

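RNA-seq was run on sorted cells with a template-switching kit, 16 PCR cycles and single reads of 75 cycles, per the labels' protocols. The authors deposited unnormalized counts of reads for each symbol, 1 column a library, and column names were matched to sample labels. FastQC 0.11.5, STAR and mm10 appear in the submitters' processing notes. How reads were counted, with which annotation and filters, is not given in the sources used here, and each symbol reached 11 counts somewhere. The kits mark neither strand nor single molecules, so floors cover counting error only.

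The authors' counts were fitted in R 4.3.3 with edgeR 4.0.16 (filterByExpr, TMM scaling, robust quasi-likelihood fit and two-sided test, no covariate, KO-labelled libraries over WT), with Benjamini-Hochberg adjustment over 16543 genes and a call at an adjusted p under 0.05. The fit's common biological coefficient of variation was 0.818. The fit was also run on counts simulated from its own estimated spread, with changes set only in genes of higher counts. The outcome is not given here, and that run does not bear on members near the floor. CPM are counts per 1000000 of the TMM-scaled total. Positions and exonic lengths are from GENCODE M21 on GRCm38, the assembly of mm10, where all 56 members were found once, and 11 share exonic bases with another gene. Alternatives used DESeq2 1.42.0 and limma 3.58.1. Members named in full passed the threshold, or had an unadjusted p under 0.05 with labels apart, or had the highest mean of their family, and others are given for comparison after their values were seen. The members and lists were chosen with earlier results of these data known.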

Additional observations from a re-analysis of the deposited data

How the results depend on the processing

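The calls of Efna1, Unc5b and Sema6d held under each test, scaling and filter tried, and were lost with the replicate block and without some single libraries. Of all genes, 456 were called, against 2235 with DESeq2 (14.2% of 15762 with an adjusted p), 1944 with limma-voom (11.8%), 1113 at an adjusted p under 0.1 and 0 to 568 when 1 library was left out. Members called higher were 1, against 6 with DESeq2, 4 with limma-voom, 2 where 1 CPM was required in 3 or more libraries, 2 at an adjusted p under 0.1 and 0 to 1 with 1 library left out. Members called lower were 2, against 7 with DESeq2, 5 with limma-voom, 3 under the 1 CPM requirement, 4 at an adjusted p under 0.1 and 0 to 2 with 1 library left out. DESeq2 added Epha2, Epha5, Epha7, Sema3c and Sema4d above and Efnb1, Plxna1, Sema5a, Sema5b and Sema7a below. Without mPGES-1 KO replicate 2 or replicate 3 no gene was called, with 2574 and 2975 genes at an unadjusted p under 0.05, and without WT replicate 2 1 gene was called, no member.

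The replicate numbers gave no sign of pairing: the deviations of same-numbered libraries correlated at -0.063, 0.028 and -0.017. Those of differently numbered libraries correlated at -0.052 to 0.063. With deviations from means of 3 libraries, this check cannot exclude a pairing. With the replicate number as a block, 0 genes and 0 members were called, with 2716 genes and 13 members at an unadjusted p under 0.05, and the adjusted p was 0.159 for Epha2 and 0.185 for Plxna1.

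Efna1 ranged over a log2 fold change of 1.77 to 2.27 with adjusted p from 6.36e-06 to 0.126 over 13 alternatives, Unc5b over -3.50 to -2.93 (4.97e-10 to 0.0956) and Sema6d over -4.12 to -3.04 (3.92e-06 to 0.14). Sign turned with a library left out in Ephb4 (-0.51 to 0.16), Plxnc1 (-0.50 to 4.12), Neo1 (-0.0375 to 0.81) and Pdgfra (-0.30 to 0.78), all uncalled. Over 37 named genes and 480 values, 388 kept direction and side of the threshold, 62 lost the call, 23 gained one and 7 changed sign. The cause was not tested. With a common spread of this size, members near the floor could differ without being called.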

Other observations

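Within each library, ratios of 2 members remove its total. The count of Efna1 was 13.1, 22.3 and 51.6 times that of Efnb1 in the KO-labelled libraries, against 1.47, 1.43 and 0.678 times in the WT-labelled libraries. Efna1 over Efna4, its neighbour on chromosome 3, was 31.0, 23.6 and 34.7 in the KO-labelled libraries and 4.25, 2.83 and 2.78 in the WT-labelled libraries. Epha2 over Ephb4 was 1.27, 4.27 and 3.04 in the KO-labelled libraries and 0.383, 0.715 and 0.595 in the WT-labelled libraries. Unc5b over Robo1 was 0.157, 0.435 and 0.276 in the KO-labelled libraries and 3.99, 4.76 and 3.07 in the WT-labelled libraries. All 4 ratios were chosen after their values were seen and carry no test.

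Unc5cl, a death-domain protein, became a member through its symbol and is not counted as a netrin receptor here. It was at 6.18, 4.86 and 13.7 CPM in the KO-labelled libraries and 4.85, 4.93 and 4.37 CPM in the WT-labelled libraries (log2 fold change 0.81, adjusted p = 0.635). The antisense RNA Plxna4os1 was at 0.841, 0.210 and 1.30 CPM in the KO-labelled libraries and 2.96, 0.0503 and 0 CPM in the WT-labelled libraries. Among listed carriers that separated by label without passing the test, Mical1, a semaphorin-linked oxidase of actin, was at 0.183, 1.93 and 0.0283 CPM in the KO-labelled libraries and 20.9, 58.9 and 17.4 CPM in the WT-labelled libraries (adjusted p = 0.0844), and its exons overlap a gene on the other strand by 15.0%. Vasp, an actin elongation factor, was at 59.8, 45.6 and 27.7 CPM in the KO-labelled libraries and 145.9, 190.5 and 104.6 CPM in the WT-labelled libraries (adjusted p = 0.0573). Other uncalled carriers separated the other way, namely Enah, Flrt3, Rras2 and Srgap3. Enah was at 72.5, 27.4 and 29.8 CPM in the KO-labelled libraries and 10.3, 21.4 and 23.6 CPM in the WT-labelled libraries (adjusted p = 0.254). With the called genes included, 5 listed genes lay higher and 13 lower without overlap.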
